A study of Homo sapiens with 24 samples.

Results

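The data concern RWPE1 cells that had been kept in calcitriol, 1,25(OH)2D, which is vitamin D in its active hormone form, and what changed in them between 24 h and 48 h. The 8 arrays, of 24 in the series, were chosen by their titles: 4 arrays of cells treated with 100 nM 1,25(OH)2D for 24 h and 4 of cells treated with the same dose for 48 h. RWPE1 is an immortalized, non-tumorigenic line of human prostate epithelial cells, so the arrays describe a single line in culture and not prostate tissue. The remaining 16 arrays cover treated cells at 6 h and cells given the vehicle, 0.1% ethanol, at 6, 24 and 48 h, with 4 arrays in each group. The medium of the 48 h cultures was renewed at 24 h, and the labels do not spell out whether the new medium held the hormone. RNA was measured on Affymetrix U133 Plus 2.0 arrays, and the values below are log2 gcRMA levels, in which a step of 1 is a doubling. The labels number the 4 arrays of each group but do not say whether they came from cultures set up on separate days, so p-values measure only the spread between these samples.

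1,25(OH)2D acts through the vitamin D receptor, VDR, a nuclear receptor that binds DNA together with a retinoid X receptor. Among the genes it switches on in most cells is CYP24A1, the enzyme that degrades the hormone, and in epithelial cells the hormone is known for slowing growth and for effects on differentiation. Genes that move a day after exposure can be direct targets or lie further downstream, and expression arrays alone do not separate these. Treated cells also spent another day in culture between these times. The vehicle arrays of 24 h and 48 h give the change with time in culture and renewal of the medium, measured on separate arrays.

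The 4 treated 24 h arrays differed more among themselves than those of any other group. The mean SD of a gene was 0.412 in that group, against 0.157 in treated cells at 48 h, 0.259 in vehicle cells at 24 h and 0.112 in vehicle cells at 48 h. The first component of the within-group differences held 75.2% of their variance, and replicates 1 and 4 of the treated 24 h group lay at its ends, at 0.422 and −0.552, whereas the 4 treated 48 h arrays lay between −0.0519 and 0.066. Replicate 1 of vehicle cells also lay apart from its group at 24 h and at 6 h, at −0.361 and −0.339. The treated 24 h array of replicate 4 also had the lowest 75th percentile of all probe sets, 6.31, with the other 23 arrays between 6.66 and 7.02. The results of single lists are given with and without these 2 arrays. Without them 3.93% of all genes were called upward and 1.66% downward. Basal epithelial markers were high at both times, with KRT5 at 15.4 and KRT14 at 16.2 on the log2 scale at 48 h. Of the 8 basal markers on the array, 7 passed the filter on low values. The luminal keratin genes KRT18 and KRT8 were high as well, at 14.5 and 13.3 at 48 h. Of the 9 luminal markers on the array, 3 passed the filter. PTPRC, the pan-leukocyte marker, read 3.44 and 3.34 as means of 24 h and 48 h, and none of the tested markers of 6 cell types was called in the 8 arrays. In bulk RNA, fewer cells of a kind and less of an RNA per cell cannot be told apart.

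Within treated cells, 13 of the 26000 probe sets tested differed between 24 h and 48 h at an adjusted p under 0.05 (limma, Benjamini-Hochberg), which is 0.05%. They named 13 genes. Higher at 48 h were a pair of subunits of the epithelial sodium channel, SCNN1B and SCNN1G, with the nuclear receptor gene RORA, the leucine zipper gene TSC22D3, the cyclin gene CCNA1 and the transcriptional regulator LBH (6 probe sets, 0.0231% of those tested). Lower were the growth factor binding protein IGFBP3, the activin antagonist FST, the antiviral GTPase MX1, the SMAD repressor SKI, the heparan sulfate proteoglycan GPC4, the serine protease PRSS23 and the neurofilament subunit NEFL (7 probe sets, 0.0269%). Each of the 13 moved by at least 2-fold, and in each the 4 arrays of 48 h lay wholly above or wholly below the 4 arrays of 24 h, which was so for 5.26% of all genes. All 13 were also called when the treated 24 h arrays of replicates 1 and 4 were left out, when all 24 arrays were fitted together, and by SAM, the permutation method of the study. These settings called many more probe sets, 1208, 496 and 634. Other settings lost calls: 5 probe sets were called with no filter, 3 with a spread for each group, and 0 with the replicate number as a block. Each of the 13 was called in only 1 to 4 of the 8 fits that left out 1 array. An unadjusted p under 0.05 was reached by 1875 probe sets. The number called depended on single arrays: leaving out each of the 8 in turn gave from 0 to 86 calls, with 0 when replicate 2 of 24 h or replicate 1, 3 or 4 of 48 h was left out and 86 when replicate 1 of 24 h was. Leaving out replicate 3 of 24 h gave 4 calls, and leaving out replicate 4 of 24 h gave 24. With arrays centred on their medians, 4 probe sets rose and 18 fell, and the median of all genes moved from −0.01 to −0.15.

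**Figure D1:**
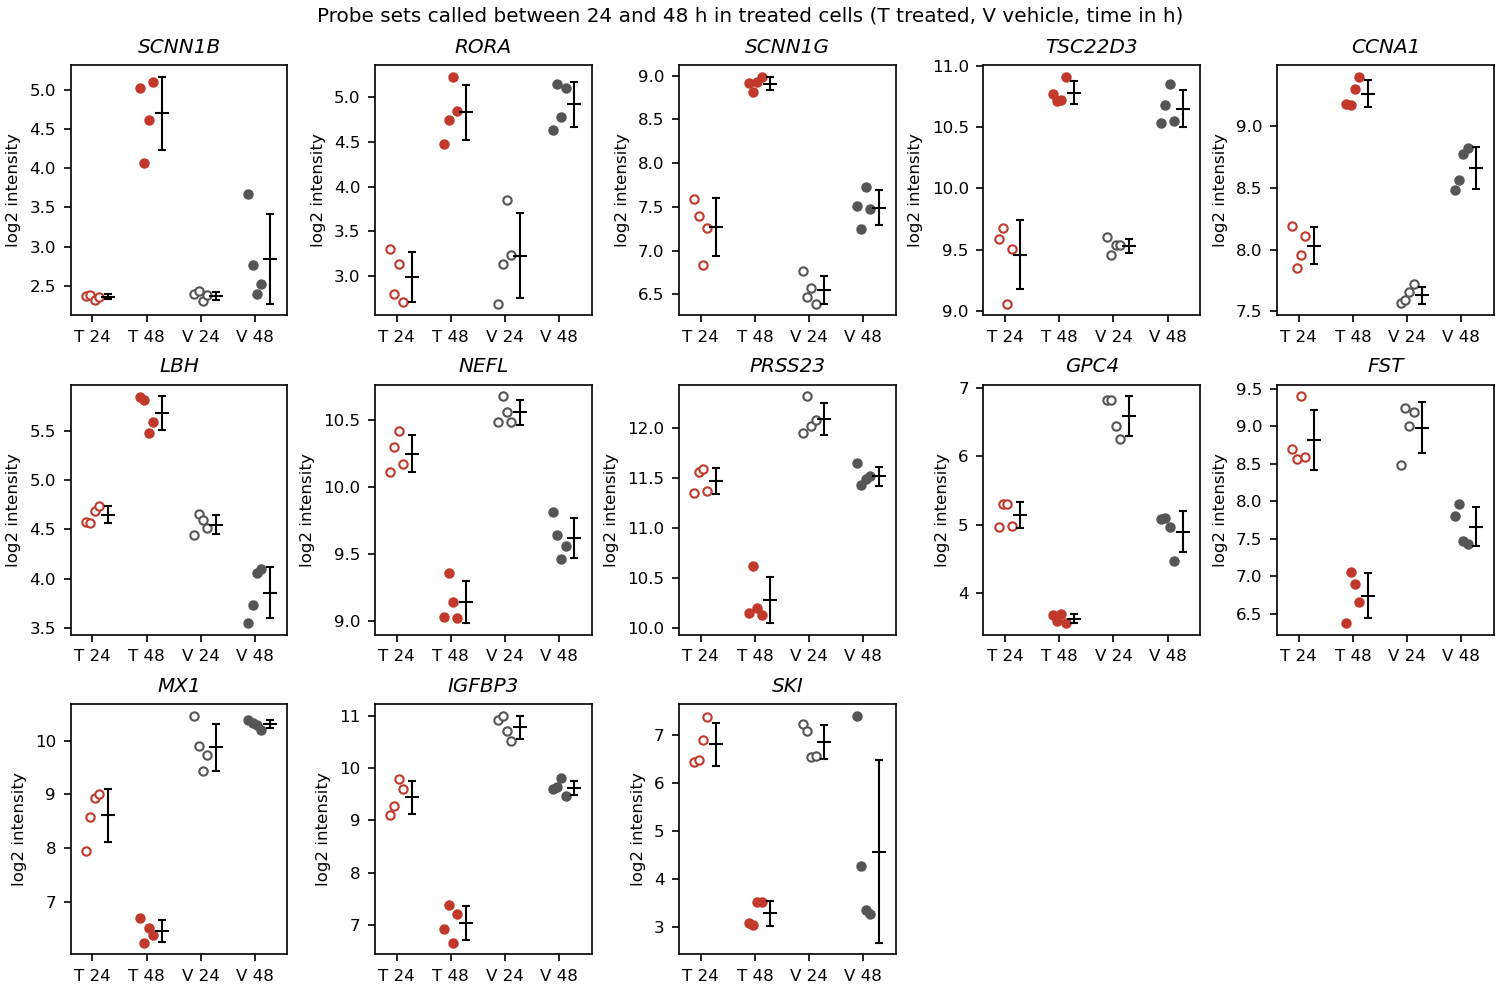
Log2 level (vertical axis) of the 13 probe sets called between 24 h and 48 h in treated cells, 1 panel per probe set. Points are single arrays of treated (T) and vehicle (V) cells at each time, and the bars beside them give the mean and SD of 4 arrays. In every panel the treated points of 48 h lie all above or all below those of 24 h, and in the panels of LBH and MX1 the vehicle means move the other way.

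SCNN1B encodes the beta subunit of the epithelial sodium channel, the entry path for sodium at the apical face of tight epithelia. It read 2.37, 2.38, 2.32 and 2.36 in the treated 24 h arrays of replicates 1 to 4, and 5.03, 4.07, 4.61 and 5.1 at 48 h. All 24 h readings lay under 3.2, the lowest level used by the filter, and all 48 h readings lay above it. SCNN1B was called higher at 48 h (adjusted p = 0.0363). Its 24 h level is only known to lie under the filter level, so the size of the rise is not firm. With the 24 h readings set to 3.2 it was 2.83-fold. The fitted change of 2.34 (95% CI 1.84 to 2.85) rests on those low readings. Among the 24 h and 48 h groups, only treated cells at 48 h, where SCNN1B was high, had 3 arrays at the filter level. The call was lost with no filter, an offset, a spread for each group and the replicate block. It was kept in 3 of the 8 fits without 1 array. In vehicle cells 7 of 8 arrays lay under 3.2 and 1 of the 48 h arrays read 3.67, with no call (adjusted p = 0.512). The difference between the changes did not pass the threshold (adjusted p = 0.273).

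The gamma subunit gene of the same channel was already well expressed at 24 h. SCNN1G read 7.59, 7.39, 6.83 and 7.26 at 24 h and 8.92, 8.81, 8.93 and 8.99 at 48 h. The 48 h arrays lay close together and above every 24 h array. SCNN1G rose by 1.65 (SE 0.16), or 3.13-fold (adjusted p = 0.0401), and it rose by 0.94 in vehicle cells as well (adjusted p = 0.0309). The difference of 0.7 between these changes was not called (adjusted p = 0.759). SCNN1A, the alpha subunit gene, showed a treated change of 0.24 (adjusted p = 0.677), with overlapping arrays. Of 24 genes measured in the list of carbonic anhydrases and ion transport, these 2 subunits were called, both upward (over all genes 0.0333% were called upward). In 4 of the 24 the arrays of 48 h lay wholly above those of 24 h, and in 0 wholly below, against 1.86% and 3.41% of all 12010 genes. Without the treated 24 h arrays of replicates 1 and 4, 5 of the 24 were called upward, AQP3 among them, and 0 downward (3.93% and 1.66% of all genes). AQP3, a channel for water and glycerol, was among these 4, with 12.23, 11.78, 11.7 and 11.99 at 24 h and 12.88, 12.58, 12.86 and 12.9 at 48 h, a change of 0.88 that was not called over 8 arrays (adjusted p = 0.129). The median change of the list was 0.23 in treated and −0.05 in vehicle cells (in treated cells 0.09 after centring and 0.1 without the 24 h array of replicate 4), and the median over all genes was −0.01 and 0.

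The called probe sets of TSC22D3, RORA and CCNA1 rose in treated and also in vehicle cells. TSC22D3 encodes a leucine zipper protein best known as a target of glucocorticoids. Its called probe set, 207001_x_at, read 9.59, 9.68, 9.06 and 9.51 at 24 h and 10.77, 10.71, 10.72 and 10.91 at 48 h. That is a rise of 1.32, or 2.5-fold (adjusted p = 0.0494), beside one of 1.12 in vehicle cells (adjusted p = 0.00946). The brighter probe set of TSC22D3 had a change of 1.17 and was not called (adjusted p = 0.116). CCNA1, a cyclin best known from the male germ line, read 8.19, 7.85, 7.96 and 8.11 at 24 h and 9.18, 9.17, 9.3 and 9.4 at 48 h. It rose by 1.23 (SE 0.1), or 2.35-fold (adjusted p = 0.0245), and by 1.03 in vehicle cells (adjusted p = 0.011). RORA, a nuclear receptor related to the retinoid receptors, read 3.3, 2.8, 3.14 and 2.71 at 24 h and 4.48, 4.75, 5.23 and 4.85 at 48 h with probe set 210426_x_at. At 24 h 3 of the 4 treated readings and 2 of the 4 vehicle readings lay under the filter level, so the fitted rises, 1.84 in treated (adjusted p = 0.0489) and 1.69 in vehicle cells (adjusted p = 0.037), rest in part on values with no firm level. With such readings set to 3.2 the rises were 1.6 and 1.55. RORA had another 2 probe sets whose arrays did not overlap either, with treated changes of 1.36 and 2.79 that were not called (adjusted p = 0.237 and 0.447). In vehicle cells these probe sets changed by 1.43 and 0.73, neither called (adjusted p = 0.0907 and 0.742). The treated and vehicle rises were thus not of like size in every RORA probe set.

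LBH, a transcriptional regulator first described in limb bud and heart, moved in opposite directions with and without hormone. In treated cells it read 4.58, 4.57, 4.69 and 4.74 at 24 h and 5.84, 5.81, 5.48 and 5.59 at 48 h. In vehicle cells it read 4.44, 4.66, 4.6 and 4.51 at 24 h and 3.55, 3.74, 4.06 and 4.1 at 48 h. At 24 h the treated and vehicle arrays covered much the same range, and at 48 h all treated arrays lay above all vehicle arrays. LBH rose by 1.04, or 2.05-fold, in treated cells (adjusted p = 0.0403), and the vehicle change of −0.69 was not called (adjusted p = 0.0711). The changes differed by 1.72 (95% CI 1.36 to 2.09) with an adjusted p of 0.00217, and this difference was called in each of the 16 fits that left out 1 array. It was lost with the arrays centred on their medians and with a spread for each group, where adjusted p reached 0.216.

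SKI is a proto-oncogene product that represses SMAD-driven transcription, and 1 of its probe sets fell. Probe set 204270_at read 6.44, 6.48, 6.91 and 7.39 at 24 h and 3.09, 3.06, 3.52 and 3.53 at 48 h, where 2 of the 4 readings lay under the filter level. The fitted change was −3.5 (adjusted p = 0.0136), and it was −3.44 with those readings set to 3.2. In vehicle cells the same probe set changed by −2.28, with 48 h arrays at 7.41, 4.28, 3.37 and 3.27, and was not called (adjusted p = 0.307). A brighter probe set of SKI, 229265_at, had a treated change of −0.6 (adjusted p = 0.43), so the probe sets of SKI disagree in size. GPC4, a glypican that carries heparan sulfate at the cell surface, read 4.97, 5.31, 5.31 and 4.99 at 24 h and 3.68, 3.59, 3.7 and 3.57 at 48 h. It fell by 1.51 (SE 0.11), a factor of 2.85 (adjusted p = 0.0136), and by 1.68 in vehicle cells (adjusted p = 0.0224). PRSS23, a secreted serine protease, read 11.35, 11.56, 11.59 and 11.37 at 24 h and 10.15, 10.62, 10.2 and 10.13 at 48 h. With probe set 202458_at PRSS23 fell by 1.19, a factor of 2.28 (adjusted p = 0.0494), and by 0.57 in vehicle cells (adjusted p = 0.0488). Its other probe sets had treated changes of −1.04 and −0.61 with overlapping arrays, neither called (adjusted p = 0.609 and 0.677). NEFL, the light subunit of neurofilaments, read 10.11, 10.3, 10.42 and 10.17 at 24 h and 9.03, 9.36, 9.14 and 9.02 at 48 h with probe set 221805_at. That probe set fell by 1.11 (adjusted p = 0.0401), beside 0.94 in vehicle cells (adjusted p = 0.0114), but the other 2 probe sets of NEFL had changes of −0.14 and 0.09 with overlapping arrays.

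In all, 9 of the 13 probe sets were called in the same direction in vehicle cells, where 169 probe sets (0.65%) were called, 50 upward (0.192%) and 119 downward (0.458%). By representative probe set 93 genes (0.774%) were called in vehicle cells, 26 upward (0.216%) and 67 downward (0.558%). The shared calls make up 69.2% of the 13 and 5.33% of the 169. The vehicle count also depended on single arrays. Leaving out each vehicle array in turn gave from 1 to 5940 calls, the most without replicate 1 of 24 h. Of the 169 vehicle calls, 158 had the same sign in treated cells, or 93.5%, against 58% of all probe sets tested. The treated and vehicle comparisons use separate arrays and share no control. The 4 treated calls that were not called in vehicle cells were SCNN1B, LBH, MX1 and SKI. An absent vehicle call is no test of a difference. When the changes were compared directly over 16 arrays, 3 of 26000 probe sets (0.0115%) differed, 2 upward (0.00769%) and 1 downward (0.00385%), and 1155 (4.44%) had an unadjusted p under 0.05. They were those of LBH, MX1 and RASSF5. RASSF5, a Ras association domain protein, read 2.85, 2.65, 2.69 and 2.8 at 24 h and 3.59, 3.99, 3.49 and 3.79 at 48 h in treated cells with probe set 1554834_a_at. All treated 24 h readings and all 8 vehicle readings lay under the filter level of 3.2, so the sizes of these changes are not known. Among these groups only treated cells at 48 h, where the readings were high, reached the filter level. The fitted difference of 0.97 was called (adjusted p = 0.0408), the treated change was not (adjusted p = 0.0735), and with the low readings set to 3.2 the treated change was 0.51. Of the 16 fits without 1 array, 5 called that difference, and so did 5 of 11 other settings. It was lost with no filter, a second quantile normalization, centring, an offset, a spread for each group and the replicate block (adjusted p up to 0.511).

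**Figure D2:**
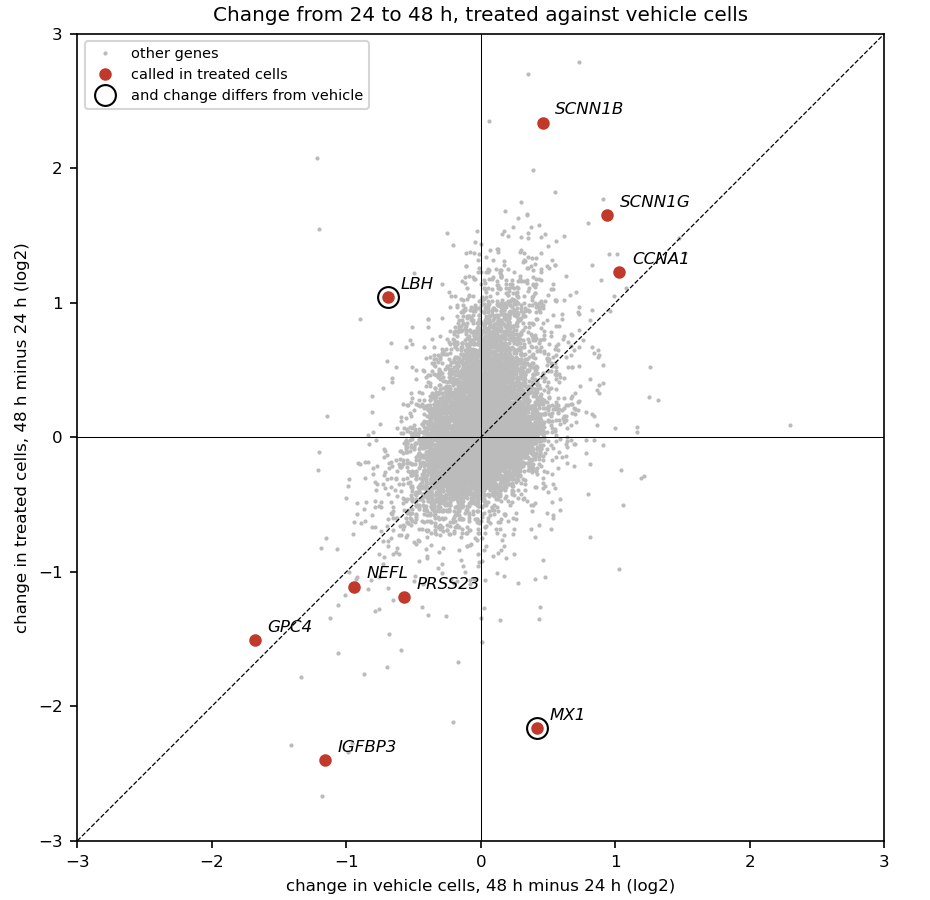
Change from 24 h to 48 h in treated cells (vertical axis, log2) against the change in vehicle cells (horizontal axis, log2), 1 point for each of the 12010 genes by its representative probe set. Red points are the 9 genes called in treated cells by that probe set, circles mark those whose changes also differed from vehicle, and the dashed line marks equal changes. LBH and MX1 lie in the quadrants of opposite sign and the other 7 in those of equal sign.

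MX1 was the member of the interferon-stimulated genes that passed the test. These genes are induced by interferons through the ISGF3 complex of STAT and IRF proteins, and their products block steps in viral replication. In treated cells MX1 read 7.94, 8.57, 8.93 and 9.01 at 24 h and 6.7, 6.23, 6.5 and 6.38 at 48 h. In vehicle cells it read 10.47, 9.9, 9.43 and 9.73 at 24 h and 10.39, 10.34, 10.29 and 10.21 at 48 h. Treated MX1 levels thus lay under every vehicle level at both times, and those of 48 h lay lower than those of 24 h. MX1 fell by 2.16 in treated cells, a factor of 4.47 (adjusted p = 0.0494), and the vehicle change was 0.42 (adjusted p = 0.423). The changes differed by −2.59 (95% CI −3.29 to −1.89), with an adjusted p of 0.0222. That difference was called in 5 of the 16 fits without 1 array, and adjusted p over those fits ran from 0.00105 to 0.0918. It was also lost with no filter, with centring and with the replicate block (adjusted p up to 0.294).

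Among 45 interferon-stimulated genes measured, 40 had a lower mean at 48 h than at 24 h in treated cells, and in vehicle cells 9 did. The median change of the list was −0.45 in treated cells, with members from −2.16 to 1.26, and 0.17 in vehicle cells. Of the 45, 1 was called downward and 0 upward (0.0416% and 0.0333% of all genes). The arrays did not overlap for 11 members, all lower at 48 h (3.41% of all genes lay wholly lower). Without the treated 24 h arrays of replicates 1 and 4, 10 members were called downward and 0 upward, against 1.66% and 3.93% of all genes in that fit, and the median change was −0.49. After centring it was −0.59. With all 24 arrays in the fit 6 were called downward and 0 upward (1.69% and 0.741% of all genes), and by SAM 8 and 0 (2.09% and 0.799%). The median level of the 45 genes was 7.03, 6.92, 7.34 and 7.08 in the treated 24 h arrays and 6.36, 6.23, 6.79 and 6.38 in the 48 h arrays, with no overlap. In vehicle cells it was 7.94, 8.01, 7.58 and 7.85, then 8.02, 8.14, 8.17 and 8.22. The list medians of replicates 1 and 4 were close, but single members differed between these arrays, MX1 among them.

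Several members moved by a factor of about 2 without passing the test over all probe sets. OAS2, a sensor of double-stranded RNA, read 6.1, 6.53, 6.84 and 7.08 at 24 h and 4.88, 5.68, 5.51 and 5.09 at 48 h, a change of −1.35 (adjusted p = 0.222). Its other probe sets changed less, by −0.43 and by −0.18, and the latter had overlapping arrays. ISG15, a ubiquitin-like modifier, read 12.31, 12.77, 12.77 and 13.16 at 24 h and 11.95, 11.37, 11.71 and 11.78 at 48 h, a change of −1.05 (adjusted p = 0.208). BST2, which tethers budding virus particles to the cell, had a change of −1.08, with 24 h arrays from 6.26 to 7.36 and 48 h arrays from 5.46 to 5.65. By representative probe set, the arrays of the 2 times did not overlap for any of these 3 genes. IFIT1, which binds viral RNA caps, changed by −1.03, OASL by −1.09 and HERC6, a ubiquitin ligase, by −1.05, each with all 48 h arrays under all 24 h arrays. The regulators of the pathway gave smaller values: IRF9, part of the ISGF3 complex, changed by −0.68 (adjusted p = 0.579) and IRF7 by −0.6 (adjusted p = 0.677), both with overlapping arrays. The list did not move as a block: RSAD2 sat near the filter level, with 3.45 as the mean of 24 h and a change of −0.06. EIF2AK2, the RNA-activated kinase PKR, had the highest change, 1.26 with an SE of 1, and its 24 h array of replicate 4 read 4.16 against 8.07 to 9.29 in the other 3.

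The interferon-stimulated response element, read here as GAAA, any 2 bases and GAAA again on either strand, was searched in the 250 bases before the annotated starts (RefSeq, GRCh38.p14). It was found for 26 of the 37 list genes with a promoter entry (70.3%), against 3.71% of all 27305 genes with an entry. The windows below are shown for MX1, which was called, and for 3 list members whose arrays did not overlap; capitals mark the letters of a match, and overlapping or neighbouring matches are all in capitals. A match describes these letters and is not evidence of binding. The MX1 window is chr21:41431829-41431888 on the plus strand, at 1 of 3 listed starts, with the match 196 to 187 bases before it. The ISG15 window is chr1:1013359-1013418, plus strand, the IFIT1 window is chr10:89392482-89392541, plus strand, and the BST2 window is chr19:17405726-17405785, minus strand. MX1 and IFIT1 hold the reverse complement of the element as printed.
MX1: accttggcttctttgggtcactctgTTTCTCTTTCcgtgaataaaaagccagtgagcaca
ISG15: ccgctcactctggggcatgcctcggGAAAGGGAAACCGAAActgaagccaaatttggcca
IFIT1: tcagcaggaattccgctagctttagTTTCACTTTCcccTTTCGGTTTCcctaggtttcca
BST2: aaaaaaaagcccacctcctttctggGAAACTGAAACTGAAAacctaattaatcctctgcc

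**Figure D3:**
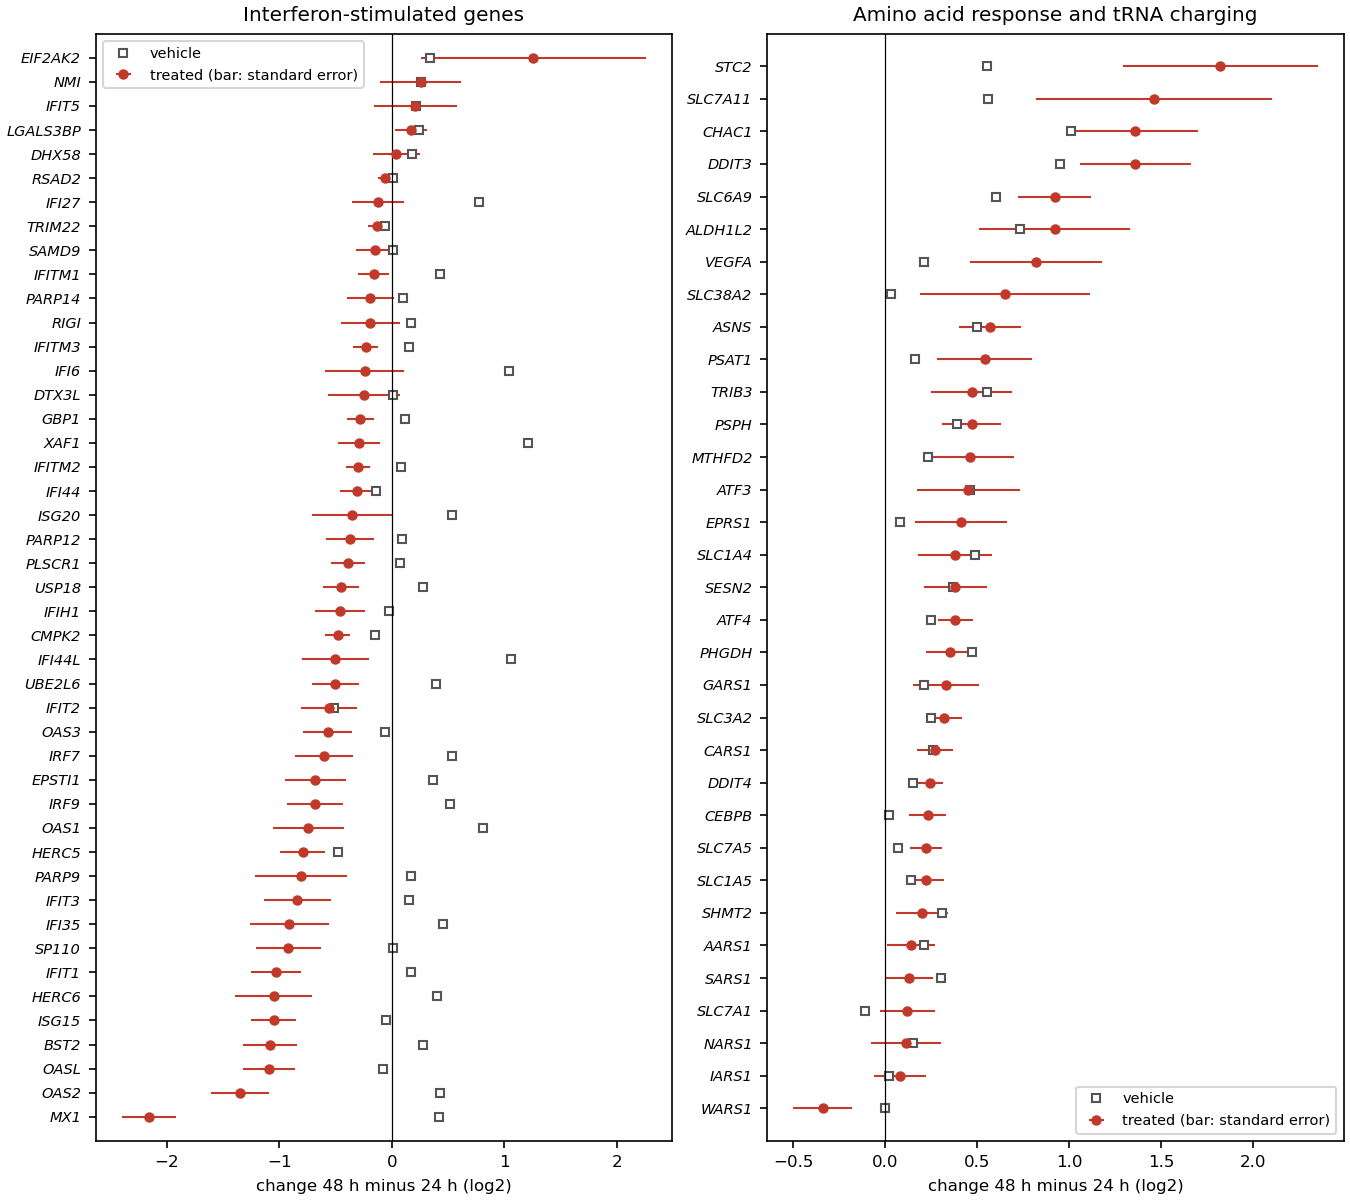
Change from 24 h to 48 h (log2, horizontal axis) of each measured gene of the interferon-stimulated list (left) and the amino acid response list (right). Circles are treated cells with bars of 1 SE, and squares are vehicle cells. On the left 40 of 45 circles lie below 0, and on the right 32 of 33 lie above 0.

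The genes that handle the hormone itself showed no called change between 24 h and 48 h. CYP24A1, which degrades 1,25(OH)2D, read 10.91, 9.99, 10.03 and 8.9 at 24 h and 9.69, 10.1, 9.87 and 9.33 at 48 h. The arrays overlapped fully, and the change of −0.21 had a 95% CI from −1.13 to 0.71 (adjusted p = 0.821). VDR read 11.06, 11.18, 11.25 and 11.33 at 24 h and 10.79, 11.18, 10.83 and 10.93 at 48 h, a change of −0.27 (95% CI −0.53 to −0.02) that was not called (adjusted p = 0.654). Its partners RXRA and RXRB changed by −0.04 and −0.02. CYP27B1, which makes the hormone, changed by 0.01, CYP2R1, a 25-hydroxylase, by 0.26, and TRPV6, a calcium channel known as a vitamin D target in gut, by 0.27, none called. The study listed TRPV6 as absent on these arrays at every time.

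Of 31 measured genes of vitamin D metabolism and of targets named by the study, 1 was called, against 0.0749% of all genes. Since the study chose part of this list on these same arrays, its counts are not independent evidence. The median change was 0.01 in treated and −0.03 in vehicle cells. In 5 members all treated 48 h arrays lay above those of 24 h (1.86% of all genes) and in 7 below (3.41%). Without the treated 24 h arrays of replicates 1 and 4, 5 members were called upward (CALML3, HBEGF, LOX, SERPINB1 and VAV3) and 2 downward (IGFBP3 and VEGFC). In that fit 3.93% of all genes were called upward and 1.66% downward. The members wholly above were CALML3, a calmodulin-like protein of differentiating epithelium (change 0.73, adjusted p = 0.133), HBEGF, SEMA3F (0.2), SEMA6D (1.24, adjusted p = 0.356) and SERPINB1, an inhibitor of neutrophil proteases (0.58, adjusted p = 0.181). SEMA6D readings of 3.03 and 2.97 at 24 h lay under the filter level of 3.2, so the size of its change is not firm. HBEGF, a ligand of the EGF receptor, read 8.5, 8.21, 6.96 and 6.76 at 24 h and 9.35, 9.43, 9.45 and 9.3 at 48 h. Its 4 arrays of 48 h nearly coincide and those of 24 h spread widely, and the change of 1.77 was not called (adjusted p = 0.261). Those below were IGFBP3, the phosphatase gene DUSP10 (−0.55), the anticoagulant receptor gene THBD (−0.66), the lymphatic growth factor VEGFC (−0.54), the Wnt inhibitor APCDD1 (−0.58), ABCG1 (−0.22) and AKAP12, which was under the filter level at both times and changed by −0.09.

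Other members of that list had overlapping arrays. CAMP, the antimicrobial peptide cathelicidin and a direct vitamin D target in human cells, read 3.65, 3.88, 3.61 and 5.6 at 24 h and 6.18, 4.64, 6.27 and 5.78 at 48 h. The 24 h array of replicate 4 lay inside the 48 h range, and the change of 1.53 was not called (adjusted p = 0.56). LOX, a crosslinker of collagen, VAV3, a guanine exchange factor, and KLK6, a kallikrein protease, had changes of 1.16, 1.07 and 0.84. LOX and VAV3 were called without the treated 24 h arrays of replicates 1 and 4, with changes of 0.87 (adjusted p = 0.0268) and 0.99 (adjusted p = 0.0359). TXNRD1, the thioredoxin reductase, changed by 0.47, G0S2 by 0.45, CDH1, the E-cadherin gene, by 0.1 and CD14, the lipopolysaccharide co-receptor, by 0.09. CST6 changed by −0.67, CYP26B1, which degrades retinoic acid, by −0.54, P2RY2 by −0.11 and TLR4 by −0.07. None of these was called over the 8 arrays. A receptor element, read as GGTCA and GTTCA with any 4 bases between them on either strand, was searched in the 250 bases before the start. It was found in 0 of the 23 list genes with a promoter entry, against 0.0293% of all genes. A match this rare was unlikely in so few genes, so the 0 does not show that they lack an element. CYP24A1 had no promoter entry. The receptor sites that the study tested for CYP24A1, TRPV6 and SEMA3B lie outside the bases searched.

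**Figure D4:**
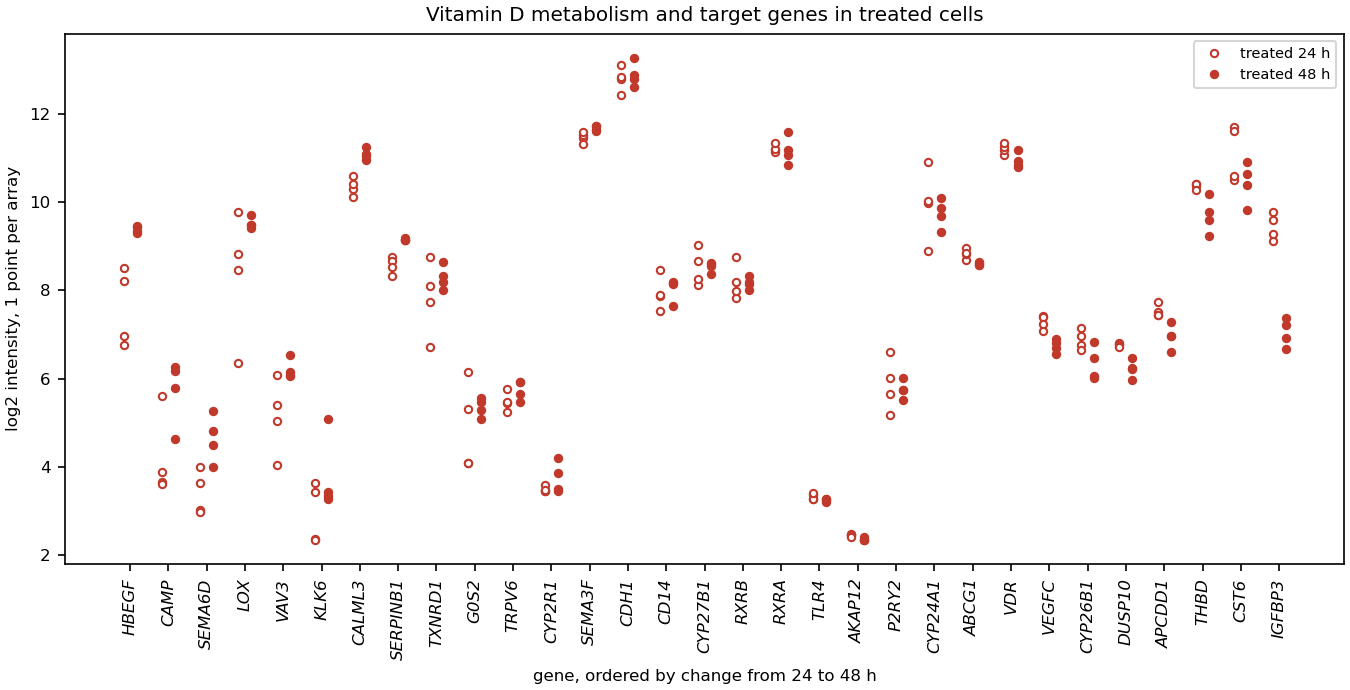
Log2 level (vertical axis) of the 31 measured genes of vitamin D metabolism and targets in treated cells, ordered by their change. Open points are single arrays of 24 h and filled points single arrays of 48 h. The CYP24A1 arrays of both times overlap, and those of IGFBP3 do not.

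IGFBP3, the main carrier of insulin-like growth factors in blood and a known vitamin D target in prostate cells, had the largest fall among the 9 genes called by their representative probe set, the brightest one tested. It read 9.11, 9.27, 9.78 and 9.6 at 24 h and 6.92, 7.38, 6.66 and 7.21 at 48 h, and the arrays of the 2 times were far apart. Vehicle cells read higher at both times, with means of 10.78 and 9.62. IGFBP3 fell by 2.4 (SE 0.2), a factor of 5.27 (adjusted p = 0.0245), and by 1.16 in vehicle cells (adjusted p = 0.0224). The treated fall exceeded the vehicle fall by 1.24, which was not called (adjusted p = 0.296). A second probe set of IGFBP3 gave −2.45, with an adjusted p of 0.0664. IGFBP4, another carrier of these factors, had a change of −1.21, with 24 h arrays from 6.15 to 6.62 and 48 h arrays from 4.92 to 5.66 (adjusted p = 0.118).

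FST, follistatin, binds and neutralizes activins. With probe set 207345_at it read 8.69, 8.56, 9.4 and 8.59 at 24 h and 6.37, 7.06, 6.89 and 6.65 at 48 h. It fell by 2.07, a factor of 4.19 (adjusted p = 0.0494), and by 1.31 in vehicle cells (adjusted p = 0.0394). The 2 brighter probe sets of FST gave changes of −1.6 (adjusted p = 0.0664) and −1.24, each with no overlap. CCN2, a matrix-associated target of TGF-beta and YAP signalling, read 8.29, 8.53, 8.63 and 8.68 at 24 h and 7.05, 7.65, 7.03 and 7.38 at 48 h. The change of −1.26 was not called (adjusted p = 0.0802), and the arrays did not overlap. In the list of TGF-beta and YAP targets, 0 of 28 measured genes were called by their representative probe set, and in 5 the 48 h arrays lay wholly below the 24 h arrays, with 0 wholly above (3.41% and 1.86% of all genes). In vehicle cells 3 of the 28 were called downward (0.558% of all genes) and 6 lay wholly below (6.06% of all genes). FST, CCN1 and CCN2 were called downward in treated cells once replicates 1 and 4 of 24 h were left out, as were 1.66% of all genes. The 5 were FST, CCN2, CCN1 (−0.61), SMAD6, an inhibitory SMAD (−0.57), and AXL, a receptor kinase (−0.37). Over the whole list the median change was −0.06 in treated and −0.14 in vehicle cells. DKK1, a secreted Wnt inhibitor, read 10.54, 10.9, 11.02 and 10.72 at 24 h and 9.67, 9.78, 9.59 and 9.12 at 48 h. Its treated change of −1.25 missed the threshold (adjusted p = 0.095), and in vehicle cells it fell by 1.06 (adjusted p = 0.0236).

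The genes of the amino acid response, which the factor ATF4 switches on when amino acids run short, and the tRNA synthetases lay higher at 48 h. Of 33 measured, 32 had a higher mean at 48 h in treated cells and 31 in vehicle cells, and over all genes 47.7% had a higher mean in treated cells. None of the 33 was called by limma over the 8 treated arrays, which compares with 9 of all 12010 genes (0.0749%). Without the treated 24 h arrays of replicates 1 and 4, 7 were called upward (3.93% of all genes), with DDIT3, STC2, SLC7A11 and ASNS among them. WARS1 was called downward (1.66% of all genes were). With all 24 arrays 5 were called upward (0.741% of all genes), and by SAM 4 (0.799%). In 10 members all 48 h arrays lay above all 24 h arrays, and in 0 all lay below (1.86% and 3.41% of all genes). The median change was 0.38 in treated and 0.25 in vehicle cells, and centring of the arrays brought the treated value to 0.24. Median levels of the list were 11.86, 11.76, 11.52 and 11.83 in the treated 24 h arrays and 11.94, 12.04, 11.96 and 12.11 in the 48 h arrays. DDIT3, the stress factor CHOP, read 6.98, 6.42, 5.46 and 5.99 at 24 h and 7.73, 7.34, 7.64 and 7.58 at 48 h, a change of 1.36 (adjusted p = 0.261). SLC6A9, a glycine transporter, changed by 0.92 and ATF4 itself by 0.38, from arrays of 13.3 to 13.63 to arrays of 13.77 to 13.96. For these 3 genes the arrays did not overlap. CHAC1, which breaks down glutathione, changed by 1.36 (adjusted p = 0.337). STC2, a secreted stress glycoprotein, changed by 1.82 and SLC7A11, the cystine importer, by 1.46. Their 24 h arrays ran from 6.89 to 9.48 and from 7.4 to 10.85, with replicate 1 highest and replicate 4 lowest in each. WARS1, the tryptophan synthetase, which interferon also induces, was the 1 member with a lower mean (−0.34).

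The amino acid response element, read as TGATGNAA on either strand, was found in the 250 bases before the start for 7 of 28 list genes with an entry (25%), against 3.89% of all genes with an entry. The windows of ASNS, asparagine synthetase (chr7:97872444-97872501, minus strand), and of CHAC1 (chr15:40953237-40953294, plus strand) are shown as members with a match, marked by capitals. ASNS had a treated change of 0.57 (adjusted p = 0.453).
ASNS: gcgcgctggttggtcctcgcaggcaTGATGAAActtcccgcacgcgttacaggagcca
CHAC1: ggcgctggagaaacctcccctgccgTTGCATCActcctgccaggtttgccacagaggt

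Of the 49 measured genes of DNA replication and the G1/S step, 0 were called (0.0749% of all genes), 6 had 48 h arrays wholly below those of 24 h and 0 wholly above (3.41% and 1.86% of all genes). In vehicle cells 6 lay wholly below and 2 wholly above (6.06% and 3.21%). CCNE1 was called downward once replicates 1 and 4 of 24 h were left out, as were 1.66% of all genes. The median change was −0.11 in treated and −0.03 in vehicle cells. UHRF1, which links replication to DNA methylation, had a change of −0.63 (adjusted p = 0.29), CCNE1, cyclin E1, one of −0.45 and FEN1, the flap endonuclease, one of −0.3. UHRF1 fell by 0.55 in vehicle cells (adjusted p = 0.0224). Of the 53 mitotic genes 0 were called, 42 had a higher mean at 48 h (47.7% of all genes did), and the median change was 0.19, against 0.01 in vehicle cells. Without the treated 24 h arrays of replicates 1 and 4, 10 were called upward and 0 downward (3.93% and 1.66% of all genes), and the median change was 0.12. Among the 10 were CENPE, a motor at the kinetochore, with a change of 1.85 in that fit, CENPF (1) and ASPM, a spindle pole protein (0.77). The level of that list at 24 h differed between arrays, at 10.7, 10.42, 10.39 and 9.74 in replicates 1 to 4, and the median change was 0.09 without replicate 4 and 0.05 after centring. The 24 h levels of the replication list were 10.5, 10.48, 10.57 and 10.11, lowest in the same array.

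Among the 37 gene lists, 4 had a called member and 5 had a median change of 0.2 or more in size. The 5 were the interferon, amino acid and ion transport lists above, the aldo-keto reductases and steroid enzymes (0.25, with 0.17 in vehicle cells and 0.12 in treated cells without the 24 h array of replicate 1) and sterol synthesis, with a median of −0.3 over 20 genes, 0 of them called and 2 wholly lower at 48 h (3.41% of all genes), and a vehicle median of −0.1 with 3 wholly lower (6.06%). In the fit without replicates 1 and 4 of 24 h, 1 sterol gene was called upward and 2 downward (3.93% and 1.66% of all genes). The S100 list had 6 higher and 6 lower means and a median of −0.02. In 3 of its 12 genes all 48 h arrays lay below those of 24 h (3.41% of all genes). In S100A6 all lay above, with a change of 0.17 (1.86% of all genes lay wholly above). S100A8, a calcium-binding protein of stressed epithelium, read 7.95, 7.86, 7.48 and 7.78 at 24 h and 6.63, 6.93, 6.59 and 6.75 at 48 h, a change of −1.04 (adjusted p = 0.0701). The vehicle change was 0.48 (adjusted p = 0.564). S100A9, its partner in calprotectin, changed by −0.54 and S100P by −1.33 (adjusted p = 0.116). S100A8 and S100P were called downward without the treated 24 h arrays of replicates 1 and 4, as were 1.66% of all genes.

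**Figure D5:**
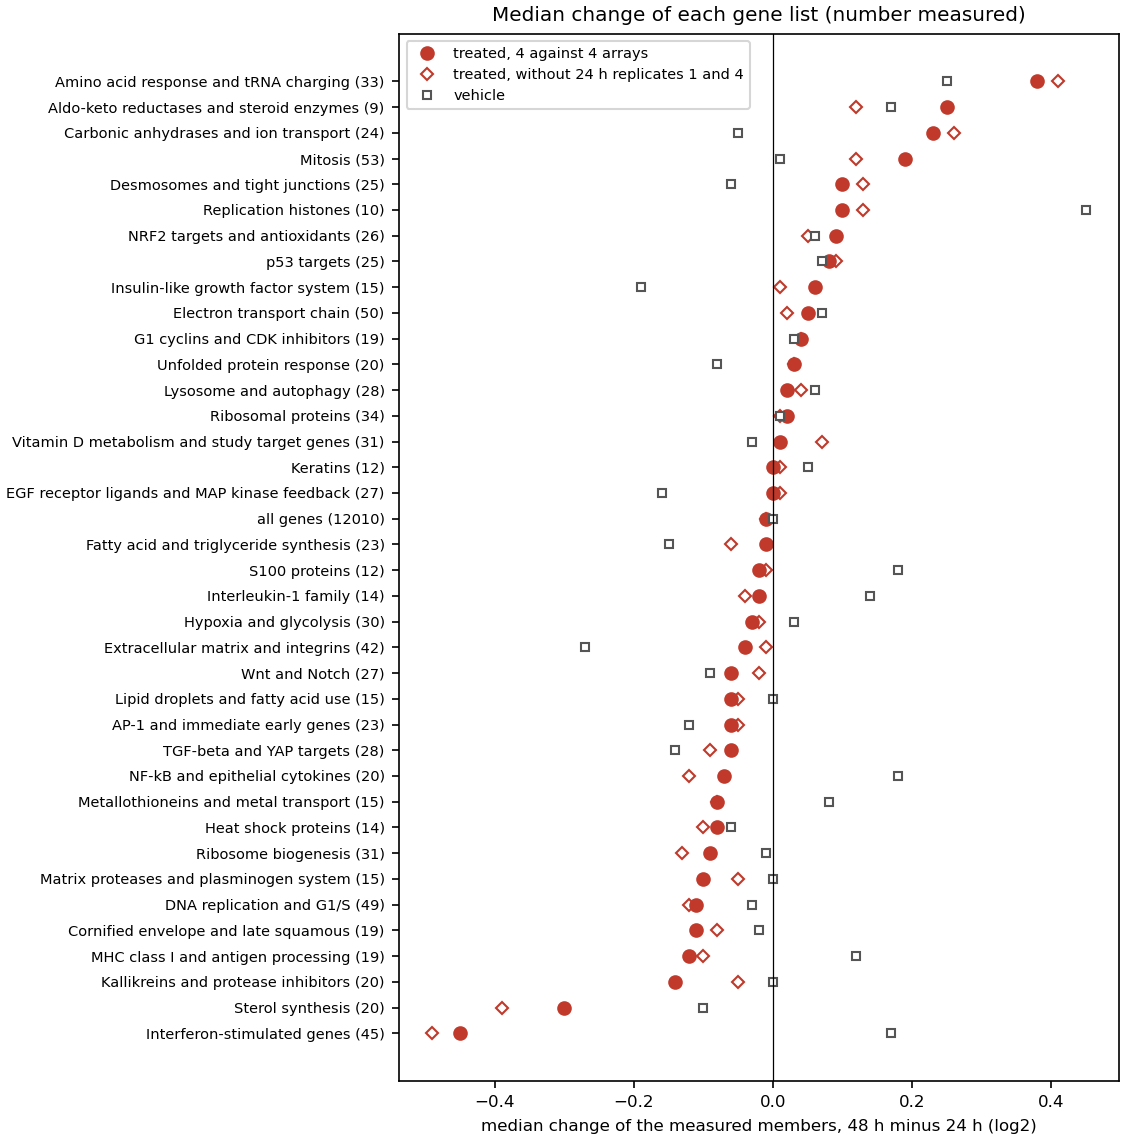
Median change from 24 h to 48 h (log2, horizontal axis) of the measured members of the 37 gene lists and of all genes, with the number measured in brackets. Filled circles are treated cells, open diamonds treated cells without the 24 h arrays of replicates 1 and 4, and squares vehicle cells. The interferon-stimulated list lies lowest in treated cells, at −0.45, and above 0 in vehicle cells, and the amino acid response list lies highest in treated cells, at 0.38.

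Beyond the 13 calls and the genes above, the following were named, none of them called over the 8 arrays. They had the lowest p among genes with no overlap, except KRTDAP and MMP2, which were named after their values were seen. SGPP2, a phosphatase of sphingosine 1-phosphate, had the largest upward value, with 4.36, 2.35, 3.06 and 3.33 at 24 h and 5.69, 6.32, 5.77 and 6.15 at 48 h, a change of 2.7 (adjusted p = 0.112). PLCD4, a phospholipase C, came closest to the threshold, with 3.35, 3.58, 3.51 and 3.37 at 24 h and 5.1, 4.66, 4.53 and 4.54 at 48 h (change 1.25, adjusted p = 0.053). PLCD4 changed by 0.2 in vehicle cells, where its readings of 2.42 to 3.35 lay near or under the filter level. Smaller upward values were those of EPHB6, an Eph receptor without kinase activity (0.75), the second RASSF5 probe set (0.75), PRELID3A (0.56) and the histone gene H2BC21 (0.94).

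On the downward side PLAC8 read 7.33, 7.56, 7.49 and 7.67 at 24 h and 5.31, 5.44, 4.34 and 5.77 at 48 h, a change of −2.29 (adjusted p = 0.0735). PLAC8 fell by 1.41 in vehicle cells (adjusted p = 0.011). KANK4, of a family of proteins that act at focal adhesions, changed by −2.27 (adjusted p = 0.0735), with 24 h arrays from 6.12 to 7.03 and 48 h arrays from 3.68 to 4.78. FAM171A1 changed by −1.29 (adjusted p = 0.0547) and fell by 0.79 in vehicle cells (adjusted p = 0.0393). UBQLN2, a shuttle factor of the proteasome, changed by −0.63 (adjusted p = 0.0747). KRTDAP, a secreted product of differentiating keratinocytes, read 4.75, 6.19, 5.16 and 5.85 at 24 h and 3.59, 2.48, 2.6 and 2.58 at 48 h, with 3 of the latter under the filter level, a change of −2.67 (adjusted p = 0.103). MMP2, a gelatinase, changed by −1.52 in treated cells (adjusted p = 0.248) and by 0.01 in vehicle cells.

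No marker of the 6 cell types was called over the 8 arrays. When replicates 1 and 4 of 24 h were left out, the basal markers DSG3 (0.96, adjusted p = 0.0312) and DST (0.69, adjusted p = 0.0237) were called upward, as were 3.93% of all genes. Summed over the list, basal markers ran from 85.1 to 90.5 in the treated 24 h arrays and from 89.3 to 89.9 at 48 h, luminal markers from 45.5 to 48.4 and from 45.1 to 46.9, and fibroblast markers from 40.3 to 43.8 and from 39.6 to 40.6. Endothelial sums were 30.3 to 32.4 and 30.5 to 31.7, leukocyte sums 20.4 to 22.2 and 20.1 to 20.5, and neuroendocrine sums 23.8 to 24.6 and 23.4 to 24.4. Among basal markers DSG3 changed by 0.98, DST by 0.66, KRT15 by 0.22, ITGA6 by 0.15, ITGB4 by 0.05, KRT14 by 0.04 and KRT5 by 0.03. The luminal keratin genes KRT8 and KRT18 changed by 0.08 and −0.03, and KLK3, the gene of prostate-specific antigen, which was near the filter level, by −0.32. The fibroblast markers COL1A1 and THY1 were expressed at 10 and 8.01 on the log2 scale at 24 h and changed by −0.42 and −0.47, and LUM and POSTN by −0.05 and −0.15. CLDN5, ERG, KDR and PECAM1 changed by 0.1, −0.11, 0.07 and 0.12, the leukocyte genes LYZ and PTPRC by −0.1 each and INSM1 by −0.08. The part of these markers in the results above was not tested.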

How the data were processed

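RNA of RWPE1 cells was hybridised to Affymetrix U133 Plus 2.0 arrays. The authors deposited log2 expression values, normalized over the arrays with GCRMA (version not given in the sources used here), for 54613 probe sets beside controls. These are gcRMA intensities on the log2 scale, low values lie at a floor set by the background model, and no detection calls were used here. Groups were read from the sample titles. Treated 48 h and 24 h arrays (8) were compared with limma 3.58.1 (lmFit, eBayes) in R 4.3.3, on 26000 probe sets, kept where 3 arrays of any of the 6 groups reached a level whose lowest value was 3.2, and Benjamini-Hochberg adjusted p under 0.05 was called. Vehicle arrays were fitted alike (8), and the difference of the changes was fitted over 16 arrays. Each of 12010 genes was represented by 1 probe set, the brightest of those tested that name no other gene, and 3022 tested probe sets had no symbol in the platform annotation used.

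The fit was tested on simulated data before use. In that simulation, with groups of unequal spread, it could call a few unchanged features more than its threshold allows. The simulated probe sets varied independently of each other, whereas here 1 component held 75.2% of the within-group variance. The simulation therefore gives no rate of false calls for these arrays. The number of arrays limits the precision. Alternatives were the filter, a further quantile normalization, centring, an offset of 32 on the linear scale, a trended robust variance, array weights, SAM, all 24 arrays, a replicate block and leaving out arrays.

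The members and lists were chosen with earlier results of these data known, and no set test was run. Genes were named by rule: the 12 largest called rises and falls, filled up with the lowest p among genes whose arrays did not overlap, called list members, called differences, and all vitamin D and marker genes. Other list members, and probe sets that did not represent their gene, were named after their values were seen. Promoters are from RefSeq (GRCh38.p14).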

Additional observations from a re-analysis of the deposited data

Results flagged for a closer look

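In 258 groups of 4 arrays, 15 had a highest or lowest array whose gap to its neighbour, relative to the range of the group, exceeded Dixon's 95% critical value, or 5.81%. Chance flags about 1 in 20 such groups. In treated cells at 48 h, replicate 2 stood apart for 7 genes: PRSS23 (10.62), AQP3 (12.58), EPHB6 (7.65), CD14 (7.64), IGFBP4 (5.66), KDR (3.83) and AKAP12 (2.4). Replicate 1 of 48 h stood apart for SLC6A9 (6.06), KLK6 (5.09) and KRTDAP (3.59), and replicate 3 for HERC5 (5.71). At 24 h, replicate 4 stood apart for CAMP (5.6) and KLK3 (5.2), replicate 2 for CYP2R1 (3.59) and replicate 3 for FST probe set 207345_at (9.4).

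The change from 24 h to 48 h differed between treated and vehicle cells, in limma's test of the difference itself, by 1.72 for LBH, by −2.59 for MX1 and by 0.97 for RASSF5 probe set 1554834_a_at (treated minus vehicle, log2). The RASSF5 readings of treated cells at 24 h and of vehicle cells at 24 h and 48 h lay under the filter level of 3.2, so its size is not known. For LBH and MX1 the treated and vehicle changes had opposite signs.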

How the results depend on the processing

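The number of probe sets called depended on the processing. For the treated change (13 in the fit reported), it was 496 (146 up, 350 down) with all 24 arrays in the fit, 5 with no filter, 22 (4 up, 18 down) with arrays centred on their medians, 8 with an offset, 20 with a trended robust variance, 7696 with array weights, 634 (170 up, 464 down) by SAM, 1208 (846 up, 362 down) without the treated 24 h arrays of replicates 1 and 4, and, chosen after seeing the data, 3 with a spread for each group. Leaving out each array gave 0 to 86. Centring moved the median of all tested probe sets from −0.02 to −0.16, the median of all genes to −0.15, and the amino acid list's median from 0.38 to 0.24.

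For the vehicle change (169) the counts were 82 with all arrays, 103 with no filter, 279 with an offset, 88 with a trended variance, 7723 with array weights and 40 with a spread for each group. Leaving out each array gave 1 to 5940, the highest without vehicle 24 h replicate 1. For the difference (3) they were 9 with all arrays, 1 with no filter, 1 with a stricter filter, 0 when centred (868 at an unadjusted p under 0.05), 8330 with array weights, 1 with a spread for each group, 26 without the treated 24 h arrays of replicates 1 and 4, and 2873, chosen after seeing the data, without those and vehicle 24 h replicate 1. Leaving out each array gave 1 to 33. The cause of these shifts was not tested. No called result changed direction in the alternatives run.

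With the replicate number as a block, 0 probe sets were called in treated cells (1450 at an unadjusted p under 0.05), 0 in vehicle cells (3356) and 1 for the difference. Deviations of same-numbered treated arrays correlated at −0.28, −0.3, 0.08 and 0.11. Of the 4 treated arrays at each time, 0 of 24 h and 1 of 48 h correlated best with their own number. In vehicle cells the correlations were 0.31, 0.12, 0.23 and −0.02, and 2 of the 4 arrays of each time correlated best with their own number. The labels do not say that the numbers pair samples, and these values do not settle it. The fits reported left the numbers out.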
